A study of Mus musculus with 36 samples.

Results

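Matrix metalloproteinase 2 (Mmp2), membrane-type metalloproteinase Mmp24, the secreted proteoglycan-cleaving protease Adamts9, the serine protease inhibitor Serpine2 and the hyaluronan-degrading protein Cemip act on the extracellular matrix or on the proteases that cleave it. The 5 genes were chosen by symbol, with every peak annotated to any of them in the 3 peak tables. They are 5 of 9822 genes with a listed peak, and they hold 16 of 13958 listed peaks: 13 for H3K9ac, 1 for H3K9me3 and 2 for H3K4me3. They were chosen because of the values given below, so those values are a description and carry no test of their own.

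The matrix of the arterial wall is kept by a balance of synthesis and cleavage. Metalloproteinases are made as inactive precursors, MMP2 cleaves denatured collagen and basement membrane collagen, and ADAMTS9 cleaves the large proteoglycans aggrecan and versican. Serpine2, also called protease nexin-1, blocks thrombin and the plasminogen activators that start plasmin formation at the cell surface. Cemip takes part in the breakdown of hyaluronan, the long sugar polymer that fills the space between smooth muscle cells.

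ChIP-seq, the sequencing of chromatin pulled down with an antibody, was applied to primary aortic smooth muscle cells of mice lacking cystathionine gamma-lyase (CSE), an enzyme that makes hydrogen sulfide, in the whole body and of C57BL/6N wild-type mice. Cells of both genotypes had received 1 µM angiotensin II (Ang II) for 24 hours, and no cells without it were analysed here. H3K9ac and H3K4me3 mark active promoters and H3K9me3 marks heterochromatin; each of the 12 groups (3 marks, immunoprecipitated or input chromatin, 2 genotypes) had 3 libraries of a 36-library series. The labels do not say whether the 3 libraries of a group came from separate animals or cultures, and they give no age. CSE itself (gene Cth) had no listed peak for any mark, so the tables hold no check of the genotype.

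The deposited tables give 1 mean per genotype at each peak and no value per library. The depth of each library is therefore unknown, no spread between replicates can be given here, and the p and false discovery rate (FDR) of each peak are those of the authors. The H3K9ac and H3K9me3 tables list only peaks with p between 0.000101 and 0.0499 and between 0.00011 and 0.0499. A site that is not listed may thus have differed little, have differed with a smaller p, or have had no peak. The width column of both tables is 1 base more than the positions give, so starts, ends, widths and gaps may be off by 1 base. Levels are the authors' log2 means turned back into normalised reads. Of 9 smooth muscle markers, 7 had a listed H3K9ac peak, 6 with lower and 1 (Smtn) with higher means in the knockout. Of all protein-coding genes 18.1% had a listed H3K9ac peak, and 75.8% of the genes with one were lower, so the direction of the markers is near that of the whole table. Smooth muscle actin, Acta2, had 155 mean normalised reads in knockout and 236 in wild-type cells (FDR 0.236) per the authors' deposited table. Of 5 markers each for endothelium, leukocytes and fibroblasts, 2 had a listed H3K9ac peak, with 1 higher and 1 lower in the knockout for endothelium and for fibroblasts. Both leukocyte genes had higher means in the knockout, with 1296 reads in knockout and 724 in wild-type cells at Cd14 (FDR 0.231) and 66.3 in knockout and 39.9 in wild-type cells at Aif1 (FDR 0.322) per the authors' deposited table. The part of such cells in the results below was not tested.

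Promoter sequence was at hand for 4 of the 5 genes (RefSeq, GRCm38.p6, 250 bases before to 50 after the start site). The 3 shown here are those that a listed peak covered in full: Mmp24 by its H3K4me3 peak, Adamts9 and Cemip by their H3K9ac peaks. They are given 5′ to 3′ on the strand of the gene, and capitals mark every match, on either strand, to GGGCGG (the GC box bound by SP1) or TATAAA (the TATA box); CCAAT and TGANTCA (the AP-1 site) were searched too and had no match in them.
Mmp24, chr2:155775092-155775391, plus strand: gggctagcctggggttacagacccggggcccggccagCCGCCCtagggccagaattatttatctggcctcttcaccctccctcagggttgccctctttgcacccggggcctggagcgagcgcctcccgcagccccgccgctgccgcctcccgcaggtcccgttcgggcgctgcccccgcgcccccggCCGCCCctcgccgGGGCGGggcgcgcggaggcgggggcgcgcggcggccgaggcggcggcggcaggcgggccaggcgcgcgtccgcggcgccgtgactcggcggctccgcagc
Adamts9, chr6:92943485-92943784, minus strand: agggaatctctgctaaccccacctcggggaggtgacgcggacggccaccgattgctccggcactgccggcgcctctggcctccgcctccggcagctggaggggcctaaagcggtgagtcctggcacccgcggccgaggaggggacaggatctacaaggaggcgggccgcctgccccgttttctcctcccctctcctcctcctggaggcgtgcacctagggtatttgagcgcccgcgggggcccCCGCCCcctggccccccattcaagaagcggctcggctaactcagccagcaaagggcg
Cemip, chr7:84086456-84086755, minus strand: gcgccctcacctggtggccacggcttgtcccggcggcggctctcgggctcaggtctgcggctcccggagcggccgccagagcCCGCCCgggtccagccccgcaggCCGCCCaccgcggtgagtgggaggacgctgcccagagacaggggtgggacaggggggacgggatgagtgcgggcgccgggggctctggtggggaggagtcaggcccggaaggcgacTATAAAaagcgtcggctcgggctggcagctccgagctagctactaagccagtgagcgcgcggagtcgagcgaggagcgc

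All 3 windows are rich in G and C, at 80.0% for Mmp24, 70.0% for Adamts9 and 73.7% for Cemip, against a median of 52.7% over the 32851 windows of the table. The dinucleotide CG occurs 44, 25 and 33 times in them, in the same order, against a median of 7. The Serpine2 window, which was at hand but which no listed peak covered, lies in the same range, at 77.7% with CG 41 times. The GC box occurs 3 times in Mmp24, 1 time in Adamts9 and 2 times in Cemip, and 35.7% of all windows hold at least 1. The TATA box occurs 1 time, in Cemip, with its first base at position -29 where the start site is 0, and 13.6% of all windows hold it. CCAAT occurs in 37.4% of all windows and TGANTCA in 7.81%. CACGTG, an E-box that 7.15% of all windows hold, had no match in the 3 either. Looser cores of the CArG and NF-kappaB kind occur in 73.3% and 50.8% of all windows and in each of the 3. A match is a string of letters, not evidence of binding.

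The H3K9ac comparison asked where acetylation differed between knockout and wild-type cells. It listed peaks at 4 of the 5 genes, with lower signal in the knockout at Mmp2, Serpine2 and Cemip and higher signal at Adamts9. By peaks, 12 of 13 were lower in the knockout. Among all listed peaks 77.2% were lower and 22.8% higher, and the genes were chosen from this contrast, so nothing is read from the 12. Of the 13 peaks, 7 passed an FDR of 0.05 per the authors' deposited table, against 16.6% of all listed peaks, and each of the 4 genes had at least 1 of the 7. Of these 7, 4 are Cemip peaks, and the list behind the 16.6% holds no peak with a p under 0.000101. Nothing is therefore read from the 7 either. With 1 call per gene, from its promoter peak of smallest p, 3 genes were lower and 1 higher, against 78.1% of 3051 genes lower and 21.9% higher. With peaks of any annotation it was again 3 and 1, against 75.8% of 5911 genes lower. The genes lie on chromosomes that differ in this share, with 91.3% of listed peaks lower on chromosome 7 (Cemip), 86.4% on 1 (Serpine2), 85.0% on 8 (Mmp2) and 84.0% on 6 (Adamts9). The part of chromosome in the values of the genes was not tested.

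**Figure D1:**
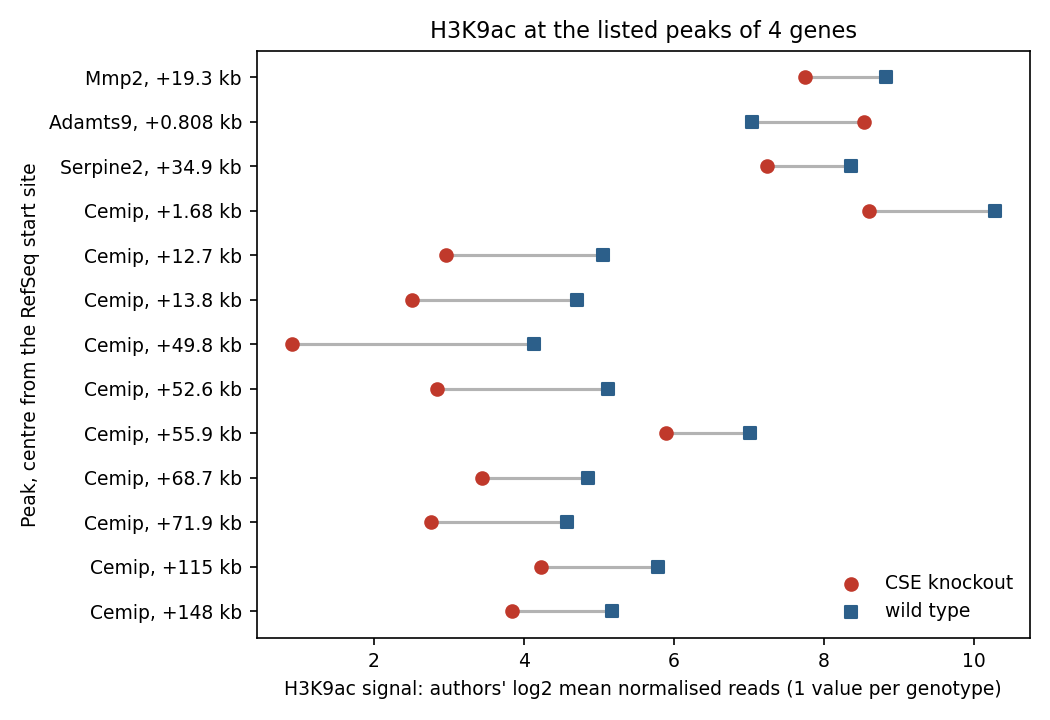
H3K9ac signal at the 13 listed peaks of Mmp2, Adamts9, Serpine2 and Cemip, as the authors' log2 mean normalised reads (x axis), with 1 circle for CSE knockout and 1 square for wild type per peak and no error bars because no value per library was used. Peaks run down the page by gene and by distance of their centre from the RefSeq start site; the circle lies left of the square at 12 peaks and right of it at Adamts9 alone.

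Cemip carried the most listed peaks of the 5 genes: 10 H3K9ac peaks over 149 kb, all lower in the knockout. Its start-site peak (chr7:84082268-84087390, GRCm38), which covers the promoter printed above, had a mean of 388 normalised reads in knockout and 1235 in wild-type cells per the authors' deposited table. It was 3.16-fold lower (FDR 0.0403 per the authors' deposited table). At 5124 bp it is wider than 99.2% of listed H3K9ac peaks, whose median width is 719 bp. Its wild-type level was above that of 98.1% of listed promoter peaks per the authors' deposited table, on the log2 scale and not per length.

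The other 9 Cemip peaks lie in introns, 7 of them in intron 1 of 28. They held far fewer reads, from 1.88 to 59.7 with a median of 7.78 in knockout cells and from 17.5 to 129 with a median of 33.1 in wild-type cells, as means per the authors' deposited table. The strongest of them, 55.9 kb into the gene (chr7:84029912-84031326), had 59.7 reads in knockout and 129 in wild-type cells and an FDR of 0.0148 per the authors' deposited table. A weaker peak nearby, 52.6 kb into the gene (chr7:84033534-84034190), had 7.21 reads in knockout and 34.8 in wild-type cells and an FDR of 0.0102 per the authors' deposited table. The third intron peak that passed the FDR lies 49.8 kb in (chr7:84036536-84036825), with 1.88 reads in knockout and 17.5 in wild-type cells and an FDR of 0.0422 per the authors' deposited table. All 3 are in intron 1, and the remaining 6 intron peaks had FDRs of 0.0615 to 0.259 per the authors' deposited table.

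Within Cemip the size of the difference was 2.16-fold to 9.32-fold, with a median of 3.32-fold, per the authors' deposited table. Both ends of that range are intron peaks, the smallest fold at the strongest of the 9 by wild-type signal and the largest at the weakest. Across the 10 peaks the log2 fold change and the wild-type log2 mean had a Spearman rho of 0.61 and a Pearson r of 0.41, given as a description since the peaks share their libraries. The selection on p moves with it at weak signal. Lower peaks of the whole table with a wild-type log2 mean under 5 were at least 2.04-fold lower (median 3.43-fold), per the authors' deposited table. Those with one of 5 to 8 were at least 1.45-fold lower (median 2.07-fold), and those with one of 8 or more at least 1.47-fold (median 1.84-fold). The medians thus fell over the bins, while the smallest fold was near the same in the upper bins.

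Of 5911 genes with a listed H3K9ac peak, 76.5% had 1 peak, and 10 genes had 10 or more. In 7 of these 10 all peaks were lower, Cemip among them. Cemip is long, and per 100 kb of gene it had 6.5 listed peaks, fewer than 7 of the other 9 such genes and more than Foxp1 (2.01) and Trio (4.40). Of the 10 Cemip peaks, 3 also lie in the long noncoding RNA gene Gm30440, which overlaps Cemip, and ChIP-seq cannot assign them to either gene alone. Another 3 listed H3K9ac peaks lay within 150 kb of Cemip, annotated to Cfap161, Gm39043 and Abhd17c. All 3 had lower means in the knockout, at 3.03-fold, 2.08-fold and 1.66-fold with FDRs of 0.193 to 0.269 per the authors' deposited table.

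**Figure D2:**
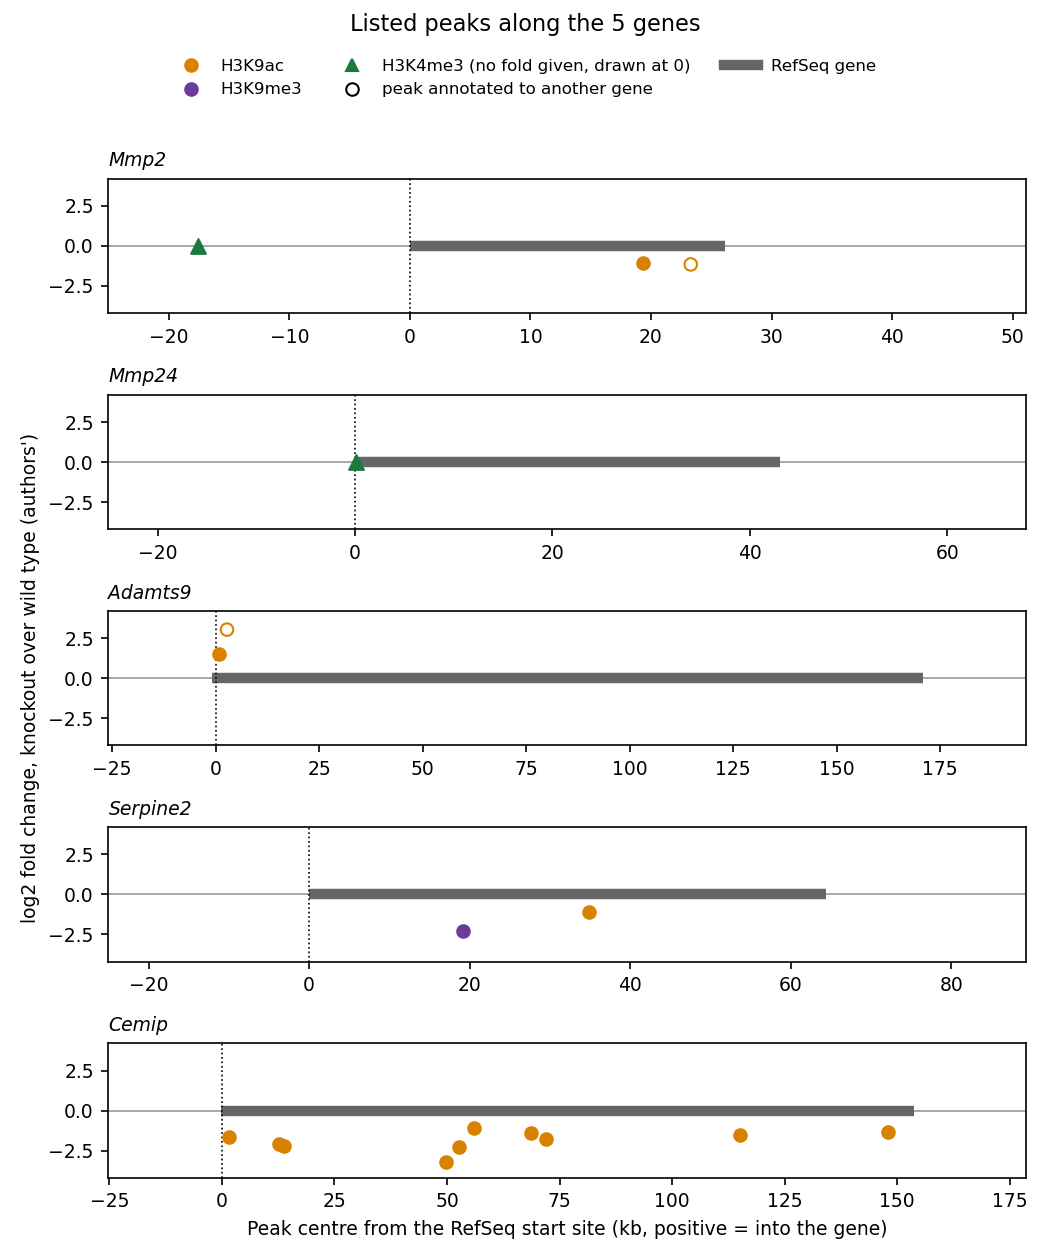
Listed peaks along each of the 5 genes: distance of the peak centre from the RefSeq start site in kb (x axis) against the authors' log2 fold change, knockout over wild type (y axis); bars at 0 are the RefSeq genes, open circles are peaks annotated to another gene, and triangles are H3K4me3 peaks, which have no fold and are drawn at 0. The 10 Cemip peaks lie below 0 along the whole gene, and the Mmp2 and Serpine2 H3K9ac peaks lie 19.3 and 34.9 kb into their genes.

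Adamts9 was the gene with higher signal. Its H3K9ac peak (chr6:92941304-92944147), which covers the start site and the promoter printed above, had 369.6 mean normalised reads in knockout and 132 in wild-type cells per the authors' deposited table. This was 2.81-fold higher (FDR 0.0433 per the authors' deposited table), with a fold larger than that of 63.8% of the genes with higher promoter calls. A second peak, 43 bases away on the gene side (chr6:92940348-92941260), had 84.4 reads in knockout and 10.3 in wild-type cells, or 8.22-fold more, with an FDR of 0.176 per the authors' deposited table. The authors annotated it to the long noncoding RNA 9530026P05Rik, whose RefSeq span overlaps the first peak too. By the authors' annotation the start of Adamts9 and that of the noncoding gene thus have separate peaks. Both peaks overlap both genes, however, and ChIP-seq cannot assign them to either gene alone. Farther into the noncoding gene, 123 kb upstream of Adamts9, a weak peak annotated to Gm44224 went the other way, with 9.19 reads in knockout and 35.8 in wild-type cells (FDR 0.0581 per the authors' deposited table). No H3K9me3 or H3K4me3 peak was listed at Adamts9.

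Mmp2 and Serpine2 each had 1 listed H3K9ac peak, and neither lay at the start site that RefSeq gives for the gene. The Mmp2 peak (chr8:92845731-92847450) had 215 mean normalised reads in knockout and 455 in wild-type cells per the authors' deposited table, 2.11-fold lower with an FDR of 0.0185. It is annotated as a promoter peak because it lies 1.78 kb from the start of a shorter transcript, which itself begins 16.7 kb into the gene, per the authors' deposited table. From the RefSeq start of Mmp2 its centre is 19.3 kb away, inside a gene of 26.1 kb. A weaker listed peak 23.3 kb in (chr8:92850265-92850874) also lies inside Mmp2, in intron 12 of 12, but was annotated to the neighbour Lpcat2. It had 24.9 reads in knockout and 56.1 in wild-type cells (FDR 0.218) per the authors' deposited table, so both listed H3K9ac peaks in the gene body had lower means in the knockout.

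The Serpine2 peak (chr1:79822844-79824762) had the smallest p of the 13, 0.000125, and ranked 49 among all listed H3K9ac peaks by p per the authors' deposited table. That rank counts listed peaks only. The list starts at a p of 0.000101, so any peak with a smaller p is left out of the count. The Serpine2 peak had 151 mean normalised reads in knockout and 329 in wild-type cells, 2.17-fold lower with an FDR of 0.00736 per the authors' deposited table. Here too the promoter label rests on a shorter transcript, which begins 37.3 kb into the gene and 1.52 kb from the peak, per the authors' deposited table. The centre of the peak is 34.9 kb from the RefSeq start of Serpine2, within a gene of 64.3 kb. The folds at Mmp2 and Serpine2 were close to the median of genes with lower promoter calls, 2.19-fold per the authors' deposited table. Of the lower promoter genes, 45.2% had a smaller fold than Mmp2, 48.5% a smaller one than Serpine2 and 81.6% a smaller one than Cemip.

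Per kb of peak width, the wild-type level was highest at Mmp2 (264 normalised reads per kb) and at the Cemip start site (241), followed by Serpine2 (171) and Adamts9 (46.3), computed from the authors' deposited table. In knockout cells the order was Adamts9 (129.9), Mmp2 (125), Serpine2 (78.7) and the Cemip start site (75.7), computed from the authors' deposited table. Adamts9, the lowest of the 4 by wild-type mean, thus had a knockout mean close to that of Mmp2. Whether neighbours in these orders differ cannot be said without values per library.

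**Figure D3:**
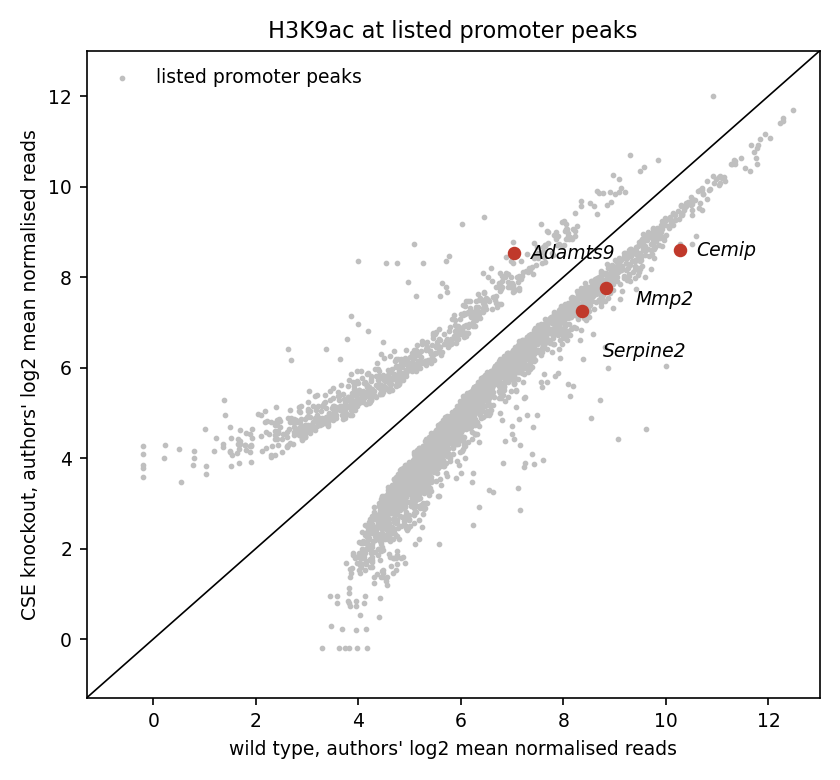
H3K9ac at all listed promoter peaks (grey), as the authors' log2 mean normalised reads in wild type (x axis) and CSE knockout (y axis), with the line of equal signal; red points are the promoter-annotated peaks of Adamts9, Mmp2, Serpine2 and Cemip. Adamts9 lies above the line and the other 3 below it, and the empty band along the line comes from the authors' selection of peaks.

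The promoter peaks of other genes, on other chromosomes, that were closest to these in both genotype means were found by the distance between their pairs of log2 means. Nearest to Mmp2 were Lrrc75b (0.01) and Pcdhgc5 (0.0510), and nearest to Serpine2 were Mycbp2 (0.01) and Robo1 (0.0361), as log2 distances over 2 group means. The nearest to Cemip and Adamts9 lay farther off, with Igf2bp3 (0.120) and Cdh11 (0.259) for Cemip and Sema3e (0.179) and Nkx3-2 (0.221) for Adamts9 on the same scale.

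The H3K9me3 comparison, which asked the same of heterochromatin, listed 1 peak at the 5 genes. It lies in intron 1 of 8 of Serpine2, 19.2 kb from the RefSeq start and 14.4 kb from the H3K9ac peak (chr1:79839209-79839733). Its mean was 2.83 normalised reads in knockout and 13.6 in wild-type cells, with a p of 0.0475 and an FDR of 1 per the authors' deposited table, so it did not pass a corrected test. Of listed H3K9me3 peaks 39.0% were lower, as were 39.6% of 3951 genes, and a peak of any annotation was listed for 5.52% of protein-coding genes. Both marks thus had a listed peak with a lower knockout mean within Serpine2, at separate sites and with far fewer reads for H3K9me3.

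The H3K4me3 table gives positions only, with no fold, p or direction. Its title names a difference between knockout and wild type at a p of 0.05, so its peaks may be a selection too. A gene without a listed H3K4me3 peak may thus still carry the mark. Listed at the 5 genes were the start-site peak of Mmp24 (chr2:155774776-155776147, 1372 bp), which covers the first of the promoters printed above, and an intergenic peak of 591 bp, 17.3 kb before Mmp2 (chr8:92809386-92809976). Mmp24 encodes a membrane-anchored metalloproteinase best known from the nervous system, and this was its only listed peak for any mark. The Mmp2 site is of a rarer kind in this table, where 87.6% of 469 peaks are at promoters, and it lies 35.8 kb from the H3K9ac peak of the gene. Neither peak can be called higher or lower in a genotype. A listed H3K4me3 peak of any annotation was found for 1.83% of 21900 protein-coding genes. Between marks, 0 of the 16 peaks overlapped a listed peak of another mark by 1 bp or more, against 1.12% of all 13958 listed peaks, so a count of 0 is near the usual rate.

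The other genes of these pathways were read from 5 lists of 122 gene symbols in all, 1 of which (Tmem2) is not among the RefSeq genes used. A promoter call for H3K9ac was listed for 25 of the 122, 18 lower and 7 higher in the knockout. Of all protein-coding genes 10.8% had such a call, and of the 3051 genes with one 78.1% were lower and 21.9% higher; the lists were made with results of these data known. The calls of the lists had a median log2 fold change of −0.93 against −0.98 over all 3051 genes. The 4 genes described above are among the 25. At an FDR of 0.05 per the authors' deposited table, 6 were lower and 2 higher, against 441 lower and 134 higher of all genes.

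Among 23 metalloproteinases, Mmp2 and Mmp19 had lower promoter calls, with 153 reads in knockout and 274 in wild-type cells at Mmp19 (FDR 0.113 per the authors' deposited table). Mmp3, or stromelysin-1, had no promoter call, but an exon peak was listed for it with 18.8 reads in knockout and 2.55 in wild-type cells, and an intron peak for Mmp28 with 44.0 in knockout and 14.6 in wild-type cells (FDR 0.0767 and 0.169 per the authors' deposited table). The list of ADAMTS and ADAMTS-like (Adamtsl) genes was split. Of 24 genes, 3 had higher calls (Adamts9, Adamts15 and Adamtsl3) and 4 lower (Adamts14, Adamts17, Adamtsl4 and Adamtsl5). Besides Adamts9, Adamts17 passed the FDR at its promoter, with 7.41 reads in knockout and 29.2 in wild-type cells (3.92-fold lower, FDR 0.0371 per the authors' deposited table). The direction at Adamtsl3 turned with the annotation: its peak of smallest p, 21.8 kb upstream, had 8.63 reads in knockout and 30.9 in wild-type cells (FDR 0.0682 per the authors' deposited table). Adamts14 had a further peak, 4.38 kb upstream, with a log2 mean of 5.61 in knockout and 6.63 in wild-type cells (FDR 0.0368 per the authors' deposited table). Outside promoters, Adamts20 had 11.7 reads in knockout and 45.9 in wild-type cells (FDR 0.0394), and Adamts12 had 6.54 in knockout and 20.7 in wild-type cells (FDR 0.284), per the authors' deposited table. Adamts15, like Adamts9 a versican-cleaving protease, had 90.5 reads in knockout and 43.4 in wild-type cells (FDR 0.228 per the authors' deposited table).

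The 29 ADAM and other proteases had 2 higher and 5 lower calls. The proprotein convertase gene Pcsk6 showed the largest difference of the 25, with 21.3 reads in knockout and 537 in wild-type cells (25.3-fold lower, FDR 0.00693 per the authors' deposited table). Adam15 had 64.9 reads in knockout and 139 in wild-type cells (FDR 0.0176), while the collagen-cleaving cathepsin gene Ctsk had 51.3 in knockout and 14.9 in wild-type cells (FDR 0.0717) per the authors' deposited table. Htra1 had a further peak 5.07 kb from its start that passed the FDR, with 35.8 reads in knockout and 86.2 in wild-type cells (FDR 0.0339 per the authors' deposited table). Outside promoters, Adam9 had 81.0 reads in knockout and 161 in wild-type cells (FDR 0.0338), and the lysosomal protease gene Ctsd had 11.1 in knockout and 26.2 in wild-type cells (FDR 0.294), per the authors' deposited table. At promoters, Adam19, Htra1 and Tll1 were listed lower and Adam33 higher, with FDRs of 0.0898 to 0.318 per the authors' deposited table.

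Of 24 protease inhibitors, 4 had lower calls (Serpine2, Cst6, Serpinb8 and Tfpi) and 1 higher (Serpine3). Serpine2 passed the FDR and the other 4 did not. Away from promoters, Timp3, a metalloproteinase inhibitor, had 52.3 reads in knockout and 27.5 in wild-type cells (FDR 0.229), Serpinb6a had 21.7 in knockout and 4.89 in wild-type cells (FDR 0.0909), and the collagen chaperone gene Serpinh1 had 21.3 in knockout and 59.3 in wild-type cells (FDR 0.0854), per the authors' deposited table. Tfpi, an inhibitor of coagulation, had 11.6 reads in knockout and 32.9 in wild-type cells at its promoter (FDR 0.120), and 67.2 in knockout and 151 in wild-type cells at a peak 6.22 kb upstream (FDR 0.0125), per the authors' deposited table.

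Among 22 hyaluronan gene symbols, Cemip, Hyal1 and Hapln3 had lower calls and Has1 a higher one. Has1, a hyaluronan synthase, had 50.6 reads in knockout and 15.9 in wild-type cells (3.18-fold higher, FDR 0.0115 per the authors' deposited table). Hyal1, a hyaluronidase, had 181 reads in knockout and 292 in wild-type cells (FDR 0.214), and Hapln3, a link protein, 9.25 in knockout and 31.8 in wild-type cells (FDR 0.0847) per the authors' deposited table. The Has1 peak lies 2.51 kb upstream of the start. Outside promoters, the hyaluronan receptor gene Cd44 had 22.2 reads in knockout and 57.7 in wild-type cells (FDR 0.124), and Cemip2, which like Cemip takes part in hyaluronan breakdown, had a log2 mean of 7.4 in knockout and 6.63 in wild-type cells (FDR 0.239), per the authors' deposited table. Of the list's promoter calls, Cemip and Has1 passed the FDR.

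**Figure D4:**
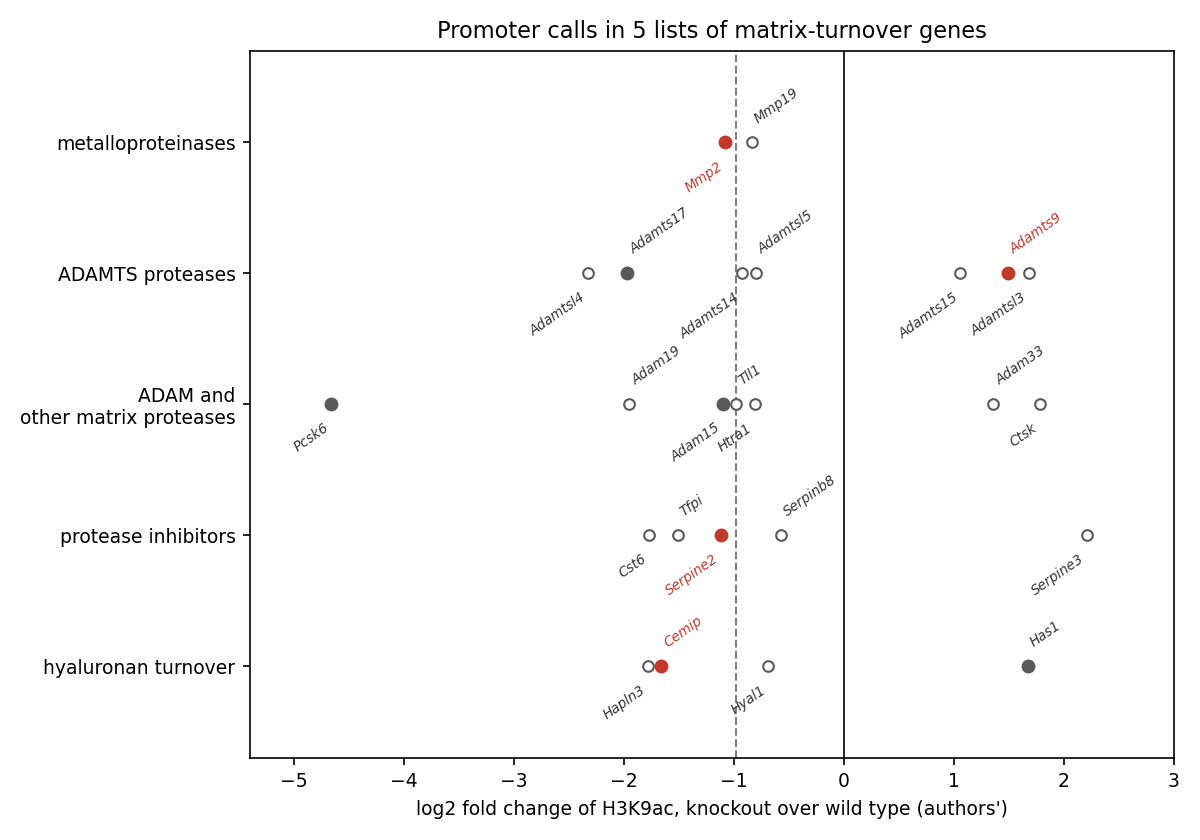
The authors' log2 fold change of H3K9ac, knockout over wild type (x axis), for each gene of the 5 lists with a listed promoter call; filled points have an FDR under 0.05, red marks the genes described in detail, and the dashed line is the median of all 3051 genes. Points lie on both sides of 0 in 4 of the 5 lists, and Pcsk6 lies farthest to the left. The list labelled ADAMTS proteases also holds ADAMTS-like (Adamtsl) genes.

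For H3K9me3, 8 of the 122 gene symbols had a listed peak, 5 higher and 3 lower, against 5.52% of protein-coding genes with a listed peak and 39.6% of listed genes lower. All 8 had an unadjusted p under 0.05, since the table lists no others, and 0 passed an FDR of 0.05 by the authors' own test, whose tool is not named in the labels, as 0 of all 3951 genes did. The 4 ADAMTS genes among them (Adamts3, Adamts12, Adamts18 and Adamts19) had higher means in the knockout, from 8.11 to 17.6 reads there against 0.732 to 1.55 in wild-type cells, with an FDR of 1 per the authors' deposited table. The 0.732 reads of Adamts3 and Adamts12 in wild-type cells are a log2 mean of −0.45. This is the lowest mean of any listed H3K9me3 peak and may be a floor. The other genes of the 8 were Pcsk5 on the higher side and Mmp1b, Serpine2 and Vcan on the lower. For H3K4me3, 6 of the 122 had a listed peak, against 1.83% of protein-coding genes: Mmp2, Mmp24, Adamts12, Adamts14, Pcsk6 and Hapln4. Adamts14 and Pcsk6 had listed promoter peaks for both H3K4me3 and H3K9ac.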

How the data were processed

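Per the submitters' processing notes, CASAVA 1.4 and the build mm9 were used. No source used here names an aligner, a peak caller, a normalisation or a differential test. Libraries were PCR-amplified, per the labels' protocols. The transcripts annotated to all 16 peaks lie within the GRCm38.p6 spans of their genes (tolerance 10 bp), and peak coordinates, printed unchanged, are taken to be of that build. Per the file headers, the H3K9ac and H3K9me3 tables hold the authors' log2 mean reads for both genotypes, a log2 fold change (knockout over wild type), a p-value and an FDR for each selected peak. The deposited fold equals the difference of the means within 0.01. The H3K4me3 table holds positions and annotation only.

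Log2 means were turned into mean normalised reads, and counts of the authors' calls were made with Python 3.11.15 and pandas 2.3.3. For 1 call per gene, the promoter peak with the smallest p was used. Distances were also computed from RefSeq start sites. No test of differences was run, since there are no values per library; the planned tests on counts were replaced by description, as planned for that case. The authors' p-values reflect only how far their libraries vary, which may be technical variation. The genes and lists were chosen with earlier results of these data known, and 1 gene is not reported here. Named genes are the 5 genes, list genes with promoter calls, up to 4 others per list by smallest p, and the 2 nearest promoter peaks. Motif search was tested on simulated data.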

Additional observations from a re-analysis of the deposited data

How the results depend on the processing

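Of the 12 lower H3K9ac peaks of the 5 genes, 9 were left at p under 0.01, 8 with a log2 signal of at least 5 in the higher group and 12 at a fold of at least 2, while an FDR under 0.05 left 6. The 1 higher peak, at Adamts9, was left under each of these settings. Counting every peak inside the gene spans, an alternative chosen after seeing the data, gave 13 lower and 2 higher peaks, the added ones being those annotated to Lpcat2 and 9530026P05Rik. The gene counts moved with the promoter label: with a start site within 1 kb, 1 gene (Cemip) was lower and 1 (Adamts9) higher, in place of 3 and 1. A peak within 3 kb of the RefSeq start, also chosen after seeing the data, gave the same 1 and 1, since the Mmp2 and Serpine2 peaks lie by internal transcripts. The 1 H3K9me3 peak was lost at p under 0.01 and with a fold above the median of its list (0 peaks each). In the 5 lists, an FDR under 0.05 left 6 lower and 2 higher genes of 18 and 7, and peaks of any annotation gave 25 and 11, while autosomes alone gave 18 and 7. No marks overlapped under either other overlap rule (0 peaks). No paired analysis was possible because the tables hold no value per library, and for the same reason no replicate could be left out and no other normalisation run. Depth per library is unknown.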
